A study of Mus musculus with 27 samples.

Results

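Somites are blocks of paraxial mesoderm that bud off in pairs along the neural tube of the vertebrate embryo and later give rise to the vertebrae, the skeletal muscle of the trunk and the dermis of the back. They form in a sequence. Neuromesodermal progenitors in the caudal epiblast feed the presomitic mesoderm, presomitic cells mature as they cross the determination or differentiation front, and newly formed somites then become epithelial and are patterned. Gastruloids are aggregates of mouse embryonic stem cells (mESCs) that elongate after a pulse of Wnt activation and hold cells of all these stages. The Somite cells described here are the gastruloid cells that the authors placed in Leiden clusters 0 and 5 and annotated as a single cell type. There were 688 cells in cluster 0 and 423 in cluster 5, which makes 1111 of 4637 gastruloid cells, or 24% of them and 35.8% of the cells annotated as mesoderm. The whole series lists 8784 cells, mESCs included.

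The 15 gastruloids were grown from B6 mESCs, a line from a cross of 129S1/SvImJ and C57BL/6 mice, and each was collected 120 h after aggregation. Before aggregation the mESCs had been kept in ESLIF, which contains serum and leukaemia inhibitory factor, without any 2i (pre-culture condition 1), in a pulse of 2i lasting 48 h followed by 48 h of ESLIF (condition 5), or in a shorter pulse of 24 h followed by 24 h of ESLIF (condition 6). 2i is a serum-free medium that blocks the kinases GSK3 and MEK and also holds leukaemia inhibitory factor. Every condition was represented by 5 gastruloids, named 1A to 1E, 5A to 5E and 6A to 6E. Viable cells of each gastruloid were sorted into a single plate with 384 wells and sequenced with CEL-seq2, a 3′ protocol with molecular identifiers. A gastruloid and its plate therefore cannot be told apart. No plate held cells of different conditions. By their labels, plates were numbered in runs by condition, with condition 6 at both ends of the numbering. Whether plates were processed in that order is not given in the sources used here, so conditions cannot be told apart from such runs. The gastruloid was the replicate in all comparisons. The sources used here do not say whether those of a condition came from separate cultures, so p-values refer to these gastruloids only.

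The label of the cells rests on the annotation of the authors. Markers of the type are Meox1 and Meox2, homeobox genes of the early somite, Pax3, a regulator of the dermomyotome and muscle precursors, and Tcf15, which is required for somite epithelialisation. The table used here has no values of single genes, so none of the 4 markers, nor those of other cell types, could be checked. Somite cells had 419 to 28870 counts, of which 5 cells were below 500 counts and 23 below 1000 counts, and 19 cells had more than 10% mitochondrial reads. Plates used the same well numbers, with 205 to 301 of them shared by any pair of plates, but no full cell name occurred more than once. The gastruloids 1D and 6B held the fewest Somite cells, 24 and 15, and results were also computed without both.

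The position of the cells relative to the other mesoderm is shown on the deposited UMAP, a map on which cells with similar transcriptomes lie close together. Somite cells formed a continuous field next to Early Somite cells. Of the 15 nearest neighbours of a Somite cell, 89.9% were Somite cells, 6.63% Early Somite, 1.81% Differentiation Front and 1.09% Presomitic Mesoderm cells, whereas 24%, 19.5%, 10.1% and 12.1% would come from a random mixture of all gastruloid cells. None was an NMP/Caudal Epiblast cell. Within the field, the centres of cluster 0 and cluster 5 lay 2.94 UMAP units apart. Cluster 0 lay closer to the Early Somite centre (2.96 units) than cluster 5 did (4.44 units), and cluster 5 lay closer to the Presomitic Mesoderm centre (4.06 units) than cluster 0 did (6.85 units). Distances on a UMAP keep neighbourhoods better than lengths, and these values describe the map only.

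**Figure D1:**
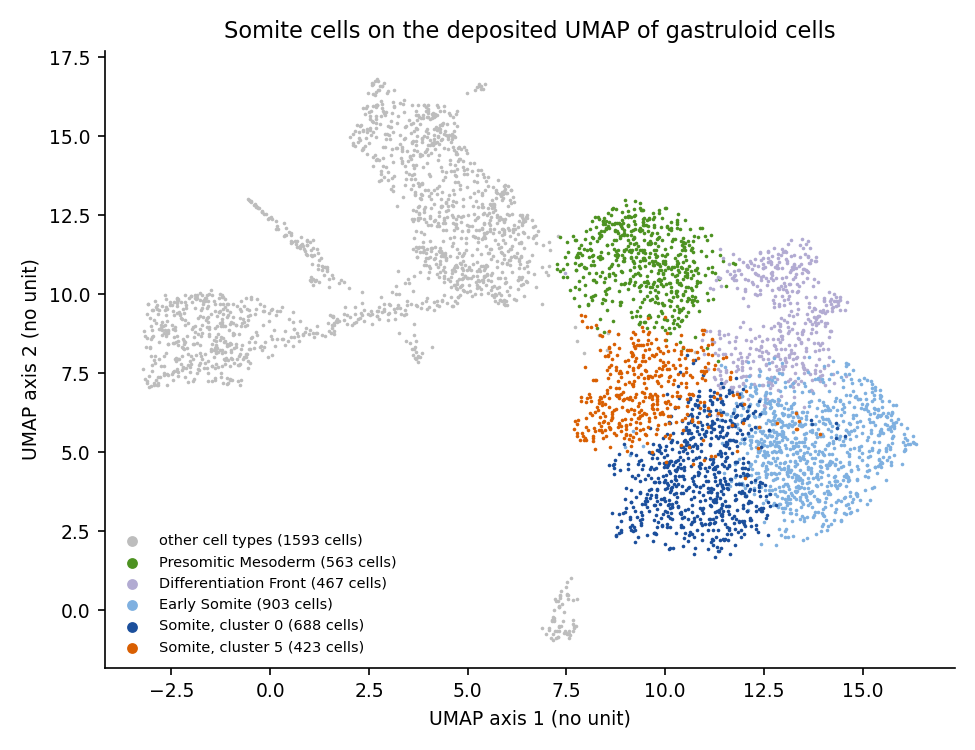
Deposited UMAP of the 4637 gastruloid cells, with both axes in UMAP units, 1 point per cell and colours for the 2 Somite clusters, the 3 mesodermal types compared with them and all other cells. Cluster 0 (688 cells) borders the Early Somite field and cluster 5 (423 cells) lies between cluster 0 and the Presomitic Mesoderm.

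Somite cells made up a larger part of condition 5 gastruloids than of condition 1 gastruloids. Their share of a gastruloid's cells was 24.3%, 22.3%, 19.8%, 7.95% and 19.0% in 1A to 1E. It was 27.8%, 34.2%, 23.0%, 31.9% and 51.8% in 5A to 5E. In 6A to 6E it was 17.6%, 5.07%, 23.7%, 22.8% and 25.8%. Gastruloid 5E was the only one in which Somite cells were the majority (95% Wilson interval 46.2% to 57.3%), and 1D and 6B were the lowest. The mean share was 18.7% ± 6.34 (SD, n = 5) for condition 1, 33.7% ± 10.9 for 5 and 19.0% ± 8.35 for 6. The difference of 15.1 percentage points between conditions 5 and 1 passed the test (Wilcoxon rank-sum test, two-sided and exact, p = 0.0159, 0.0476 after multiplication by 3 for the 3 pairs of conditions), with the condition 5 gastruloid higher in 24 of 25 pairs. Adjusted by Benjamini-Hochberg over the 21 planned tests, the value was 0.111. Condition 6 was 14.7 points below condition 5, which missed the threshold (exact p = 0.0317, 0.0952 after multiplication by 3), and conditions 6 and 1 differed by 0.325 points (exact p = 0.841). With 5 against 4 gastruloids the smallest product that the test can give is 0.0476, and leaving out 1B, 1C, 1D, 1E, 5A, 5B, 5D or 5E in turn ended the call between conditions 5 and 1 (each exact p = 0.0317), with differences of 16.0, 15.3, 12.4, 15.2, 16.5, 15, 15.5 and 10.6 points. Without 5C, the condition 5 gastruloid with the lowest share, condition 6 was 17.4 points below condition 5 and passed (exact p = 0.0159). Leaving out any other gastruloid gave no call between conditions 6 and 5.

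This difference depended on the cells that Somite cells were counted against. Among mesoderm cells alone, Somite cells made up 42.6% ± 11.1 (SD, n = 5) for condition 1, 44.2% ± 12.6 for 5 and 24.5% ± 10.6 for 6. On that denominator conditions 5 and 1 differed by 1.58 points (exact p = 0.548), and condition 6 was 18.1 points below condition 1 (exact p = 0.0159, 0.0476 after multiplication by 3).

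**Figure D2:**
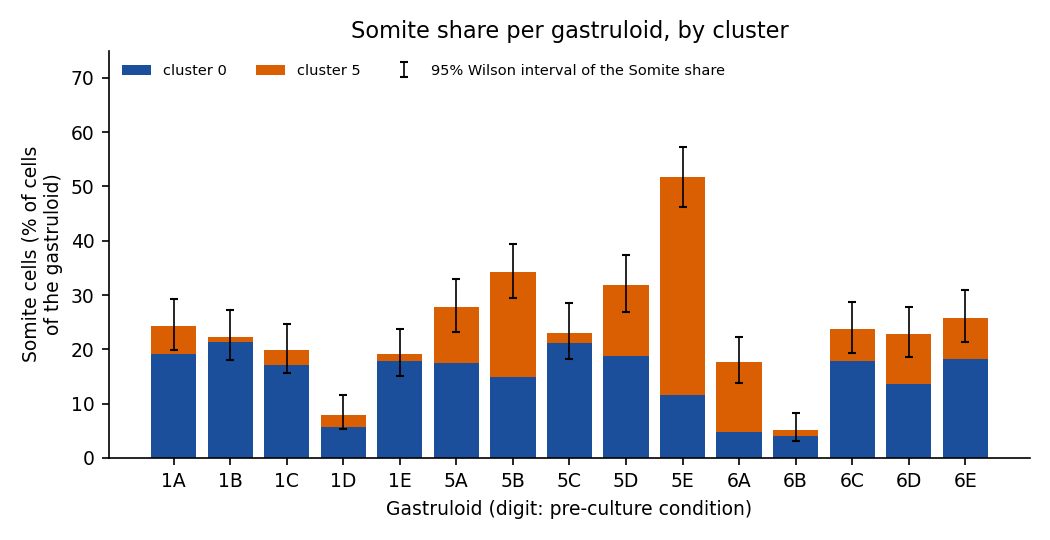
Somite cells as percent of all cells of a gastruloid, with the part in cluster 0 in blue and the part in cluster 5 in orange, and 95% Wilson intervals of the sum as bars. The cluster 0 part ranges from 4.05% to 21.3% and the cluster 5 part from 0.984% to 40.1%, with 5E at the top.

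By size, the higher Somite share of condition 5 lay mostly in cluster 5. Cluster 0 cells made up 16.2% ± 6.11 (SD, n = 5) of all cells in condition 1, 16.8% ± 3.62 in condition 5 and 11.7% ± 6.88 in condition 6, and no pair of conditions passed the test (lowest exact p = 0.222). Cluster 5 cells made up 2.49% ± 1.66 of all cells in condition 1, 17.0% ± 14.4 in condition 5 and 7.34% ± 4.37 in condition 6. Of the 15.1 points between conditions 5 and 1, cluster 0 accounted for 0.587 points and cluster 5 for 14.5 points, although neither cluster alone passed the test (exact p = 0.841 and 0.0556). Without 5E the parts were 1.87 and 8.69 points, and the cluster 0 part was -2.05 points without 1D and -0.488 points without 5C. In total, 63.4% of the cluster 5 cells came from condition 5 and 8.98% from condition 1. Gastruloid 5E alone held 124 of the 423 cells.

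Within the Somite cells, the share of cluster 5 was 21.3%, 4.41%, 13.6%, 29.2% and 6.67% in 1A to 1E. It was 37.5%, 56.3%, 8.33%, 41.1% and 77.5% in 5A to 5E. It was 73.2%, 20%, 25%, 40.3% and 29.8% in 6A to 6E. All conditions overlapped, since 5C lay among the condition 1 gastruloids, and 1D, with 7 cluster 5 cells of 24, lay within the range of condition 6. The means of 15% ± 10.3, 44.1% ± 25.5 and 37.7% ± 21.2 (SD, n = 5 each) for conditions 1, 5 and 6 gave differences to condition 1 of 29.1 and 22.6 points, both short of the threshold (exact p = 0.0556, 0.167 after multiplication by 3, for each). Without 5C, the condition 5 gastruloid with the lowest cluster 5 share, the difference between conditions 5 and 1 was 38.1 points and passed (exact p = 0.0159). Leaving out any other gastruloid gave no call between conditions 5 and 1. Without 6A the difference between conditions 6 and 1 was 13.7 points (exact p = 0.111).

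Early Somite is the annotated type nearest to the Somite cells, and the split between the 2 types varied widely. Of the Somite and Early Somite cells together, Somite cells made up 50.4% to 64.9% in condition 1 and 53.1% to 83.8% in condition 5. In condition 6 the values were 31.1%, 10.3%, 48.7%, 60% and 61.8% for 6A to 6E. The low values of 6A and 6B came with 124 and 131 Early Somite cells, the most of any gastruloid. The means were 56.5% ± 6.22, 67.9% ± 11 and 42.4% ± 21.7 (SD, n = 5 each). The 25.5 points by which condition 6 lay below condition 5 did not pass after multiplication by 3 (exact p = 0.0317, product 0.0952). Without 5C, the condition 5 gastruloid with the lowest value, that difference (29.2 points) and the 15.1 points between conditions 5 and 1 both passed (exact p = 0.0159 for each). Leaving out any other gastruloid gave no call for either difference. The difference between conditions 5 and 1 was 7.41 points without 5E. Counted together, Somite and Early Somite cells formed 34.2% ± 13.6, 48.9% ± 8.57 and 46.9% ± 7.21 of all cells, without a call between conditions (lowest exact p = 0.0952, a test added after seeing the data).

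Somite cells were mostly called G2M, whereas the other cells of the gastruloids were mostly called S. The authors scored each cell for genes of S phase and of G2 and mitosis (G2M). In the table every Somite cell with both scores below 0 was called G1, which held for 47 cells, and each of the other 1064 cells was called after its higher score. Of the Somite cells, 61.1% were called G2M, 34.7% S and 4.23% G1. Of all other gastruloid cells, 29.4% were called G2M, 63.4% S and 7.23% G1. The Somite type had the highest G2M share of the 11 cell types, followed by Spinal Cord with 43.9%, and it held 39.6% of all G2M calls but 14.7% of all S calls. The clusters were built from the genes of these same cells, after the phase call had been regressed out, so that the comparison of the type with other cells is a description and was not tested. A call is not a rate of division.

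The higher G2M share than in other cells was found in each gastruloid, but G2M was not the majority call of Somite cells in all of them. The G2M share of Somite cells was 66.7%, 72.1%, 67.8%, 70.8% and 75.0% in 1A to 1E. It was 59.1%, 51.3%, 80%, 65.3% and 45.0% in 5A to 5E, and 42.9%, 100%, 68.4%, 58.3% and 59.5% in 6A to 6E. In 5E more Somite cells were called S (46.25%) than G2M, and in 6A 41.1% were called S. The value of 100% in 6B stands for 15 cells (95% Wilson interval 79.6% to 100%). In all 15 gastruloids Somite cells had a higher G2M share than the remaining cells, by 36.3 ± 14.1 points (SD) on average. Of the 3 types compared one by one, the gap was widest towards Early Somite cells, of which 12.5% ± 8.48 were called G2M, at 53.0 ± 15.4 points (15 of 15 gastruloids). It was 37.2 ± 19.0 points towards Differentiation Front cells (14 of 14 gastruloids with at least 10 cells of both types) and 28.1 ± 17.0 points towards Presomitic Mesoderm cells (13 of 13). Conversely, the S share of Somite cells was lower than that of Early Somite cells in 15 of 15 gastruloids, by 49.1 ± 14.5 points.

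The scores behind the calls differed in the same way. The median G2M score of a gastruloid's Somite cells averaged 0.0548 ± 0.0251 (SD, n = 15) against 0.00970 ± 0.00561 in its other cells and -0.00404 ± 0.00699 in its Early Somite cells. The median S score averaged 0.0190 ± 0.00522, 0.0378 ± 0.00396 and 0.0442 ± 0.0144 in the same order. The scores have no unit, and a cell can score low on both. For 119 of the Somite cells the 2 scores lay within 0.01 of each other, so that a small shift would change their call.

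**Figure D3:**
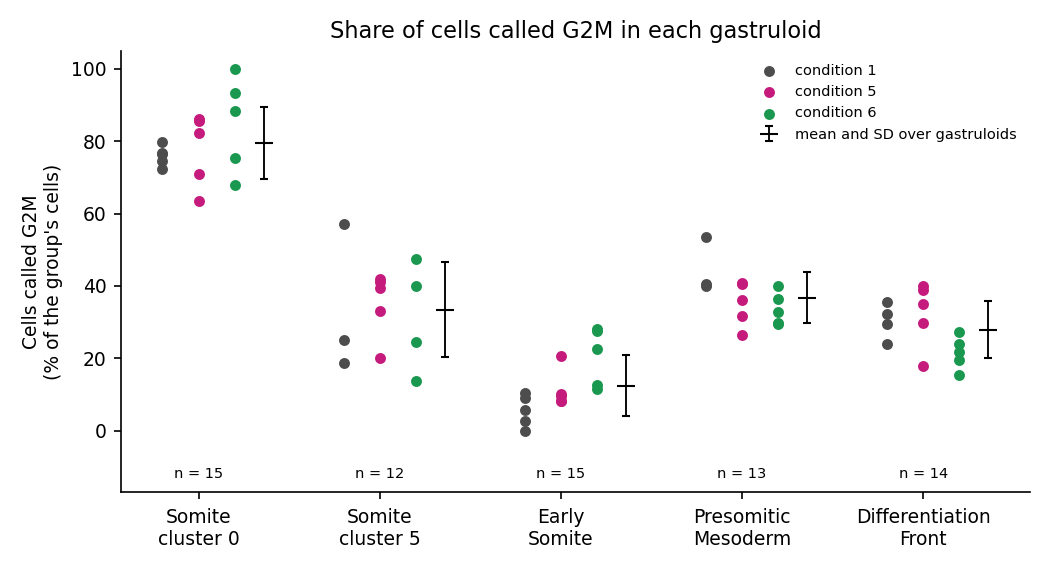
Percent of cells called G2M in each gastruloid, for Somite cluster 0, Somite cluster 5, Early Somite, Presomitic Mesoderm and Differentiation Front cells, coloured by pre-culture condition, with the mean and SD over the gastruloids that had at least 5 cells of the cluster or, for the types, at least 10 cells. Cluster 0 values lie between 63.5% and 100% and Early Somite values between 0% and 28.2%.

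Most of this pattern lay in cluster 0. Of its cells, 77.2% were called G2M, 22.7% S and 0.145% (a single cell) G1. In cluster 5 the calls were 35.0% G2M, 54.1% S and 10.9% G1, and 46 of the 47 Somite cells called G1 were in cluster 5. Cluster 0 had between 63.5% (5B) and 100% (6B) of its cells in G2M, with 79.5% ± 9.83 on average (SD, n = 15). In the 12 gastruloids with at least 5 cells of both clusters, cluster 5 lay below cluster 0 in each, by 45.2 ± 19.5 points for the G2M share, and above it by 35.5 ± 20.8 points for the S share. The pooled G2M share of cluster 5 lay beside the 35.3% of Presomitic Mesoderm cells. It lay equally near the 35.1% of Endoderm, 34.6% of PGC-like and 34.2% of NMP/Caudal Epiblast cells, so this value was not particular to neighbouring types. Cluster 5 had a higher G2M share than Early Somite cells in 10 of the 12 gastruloids. These differences are also descriptions, since the clusters were built on the same cells.

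**Figure D4:**
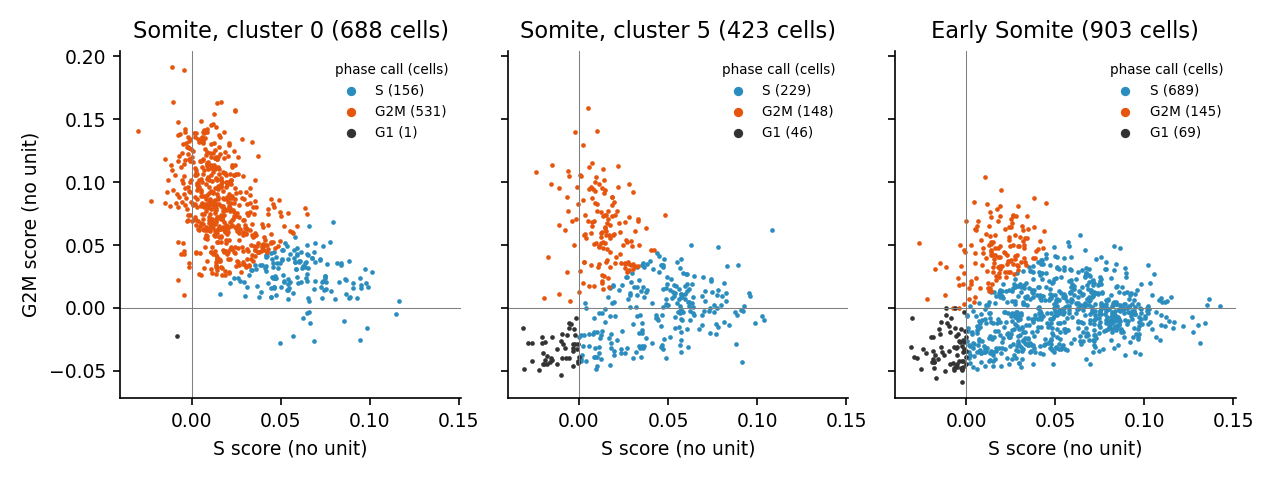
S score and G2M score (no unit) of single cells of Somite cluster 0, Somite cluster 5 and Early Somite, coloured by phase call, with lines at 0. Cluster 0 fills the region of high G2M score, with 531 of 688 cells called G2M, whereas Early Somite cells fill that of low G2M score, with 689 of 903 called S.

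Within cluster 0, S and G2M scores opposed each other across cells (Pearson r = -0.641 over 688 cells), and in cluster 5 they hardly did (r = -0.103 over 423 cells). In Early Somite cells r was 0.0264 (903 cells). Other neighbouring types lay between, with -0.397 in Presomitic Mesoderm (563 cells) and -0.263 in Differentiation Front cells (467 cells). NMP/Caudal Epiblast cells, of which none was a UMAP neighbour of a Somite cell, had -0.507 (529 cells). The groups also differed in the share of cells called G1. It was 0.145% in cluster 0, 10.9% in cluster 5 and 7.64% in Early Somite cells. In Presomitic Mesoderm, Differentiation Front and NMP/Caudal Epiblast cells it was 3.55%, 5.57% and 0.945%. The coefficients were not computed without cells called G1, so they are not separate from this composition. Cells share a plate and a depth, and these coefficients are descriptions across cells without a test. Median S scores of the clusters showed no common direction, since cluster 5 was above cluster 0 in 6 of 12 gastruloids. With mean S scores, cluster 5 was above cluster 0 in 9 of 12 and below it in 3. The median G2M score was lower in cluster 5 in 12 of 12, by 0.0596 ± 0.0180.

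The depth of a cell moved with its call, and the calls were therefore compared among cells of like depth. Gastruloid cells were divided into 3 equal classes by counts, with the middle one from 7190 to 11198 counts. From the low to the high class, the G2M share rose from 46.3% to 57.5% and 76.4% in Somite cells, from 62.4% to 73.5% and 89.5% in cluster 0 and from 27.8% to 30.8% and 48.1% in cluster 5. In Early Somite cells it was 14.9%, 13.9% and 22.3%, and in all other cells 22.2%, 21.8% and 44.8%. Somite cells thus had a higher G2M share than either group in each of the 3 classes. The gap between cluster 0 and cluster 5 was likewise present in each.

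Neither the S nor the G2M share of Somite cells passed the test between any pair of pre-culture conditions. The G2M share was 70.5% ± 3.35 (SD, n = 5) for condition 1, 60.1% ± 13.5 for 5 and 65.8% ± 21.2 for 6 (lowest exact p = 0.151). The S share was 28.4% ± 3.61, 35.4% ± 10.5 and 28.9% ± 16.5 (lowest exact p = 0.198). The spread was unequal, with G2M shares from 66.7% to 75.0% in condition 1, from 45.0% to 80% in condition 5 and from 42.9% to 100% in condition 6. In cluster 0 alone, condition 5 was 1.67 points above condition 1 rather than 10.3 points below it, and condition 6 was 9.04 points above condition 1 rather than 4.64 below. In cluster 5 alone the difference between conditions 5 and 1 kept its direction, at -8.46 points (exact p = 0.548), and condition 6 was 1.6 points above condition 1 (exact p = 0.690). Without 5C, the condition 5 gastruloid with the highest G2M share, the 15.3 points between conditions 5 and 1 passed the test (exact p = 0.0159). Leaving out any other gastruloid gave no call for this difference (exact p from 0.190 to 0.286).

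When Somite and Early Somite cells were pooled, the G2M share was 42.5% ± 3.75, 43.7% ± 6.12 and 38.8% ± 4.88 in conditions 1, 5 and 6 (SD, n = 5 each, lowest exact p = 0.310). In the 15 gastruloids this combined share lay between 32.8% and 52.2%, a narrower range than the 42.9% to 100% of Somite cells alone. The 100% stands for 15 Somite cells in 6B, and the next highest value was 80% in 5C. The combined share rests on more cells per gastruloid, so its narrower range partly follows from the pooling itself. Among the G2M cells of both types, 93.5% ± 5.36 were Somite cells in condition 1, 91.4% ± 5.79 in condition 5 and 64.2% ± 27.6 in condition 6. Among the S cells of both types the values were 29.3% ± 2.83, 48.6% ± 18.6 and 27.3% ± 17.3. The contrasts of condition 6 with conditions 1 and 5 among G2M cells had exact p = 0.0397 and 0.0317, which did not pass after multiplication by 3 (0.119 and 0.0952). These tests were added after seeing the data.

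Somite cells were deeper than Early Somite cells. The median counts of a gastruloid's Somite cells ranged from 6808 (1D) to 15123 (6B), with 9982 ± 2103 on average (SD, n = 15), against 9159 ± 1478 in the other cells and 7372 ± 1652 in Early Somite cells. The Somite value was above the Early Somite value in 15 of 15 gastruloids, by 2610 ± 1260 counts, and above that of all other cells in 10 of 15. In median number of detected genes, Somite cells (4515 ± 519) exceeded Early Somite cells by 742 ± 328 in 15 of 15. The gap to Early Somite cells was also present among G2M cells and among S cells. Pooled over gastruloids, Somite cells had a median of 10619 counts in G2M and 8270 in S, and Early Somite cells had 7848 and 7544. Among cells called G1 the order was the other way, with 5296 counts in 47 Somite cells and 5780 in 69 Early Somite cells.

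The clusters of the type differed less in depth. The median over all cells was 9902 counts in cluster 0 and 8547 in cluster 5, and cluster 5 was below cluster 0 in 10 of 12 gastruloids, with a difference of -1320 ± 2155 counts. Among cells with the same call, the medians were 10675 and 10220 counts in G2M and 8232 and 8270 in S. No pair of conditions passed the test for the median counts of Somite cells, which averaged 9006 ± 1348, 10152 ± 2280 and 10787 ± 2534 in conditions 1, 5 and 6 (SD, n = 5 each, lowest exact p = 0.310).

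Mitochondrial reads were left out before the clustering, so the mitochondrial percentage was tested between cell types as well as between conditions. The percentage itself had been regressed out of the gene values before the clustering, so the types and clusters compared were built with it removed. Somite cells of condition 6 had a lower mitochondrial percentage than those of conditions 1 and 5. Their median was 5.41%, 5.47%, 5.19%, 6.94% and 5.88% in 1A to 1E. It was 5.38%, 5.19%, 5.42%, 5.22% and 4.91% in 5A to 5E, and 4.62%, 4.21%, 4.79%, 4.20% and 4.95% in 6A to 6E. Conditions 1 and 6 did not overlap, and of condition 5 only 5E lay within the range of condition 6. The difference of condition 6 was -1.22 points to condition 1 (exact p = 0.00794, the smallest that 5 against 5 gastruloids can give, 0.0238 after multiplication by 3) and -0.671 points to condition 5 (exact p = 0.0159, product 0.0476). Both values were 0.111 after Benjamini-Hochberg adjustment over the 21 planned tests. The call between conditions 6 and 5 ended when 5A, 5B, 5C, 5D, 6A, 6B, 6C or 6D was left out (each exact p = 0.0317), with differences between -0.731 and -0.582 points. With means over cells in place of medians neither difference passed (-0.849 points, exact p = 0.0556, and -0.474 points, exact p = 0.0317).

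The other cells of the gastruloids showed a difference in the same direction. Their median mitochondrial percentage averaged 5.26% ± 0.193 for condition 1, 5.07% ± 0.245 for condition 5 and 4.67% ± 0.306 for 6 (SD over 5 gastruloids). The difference of -0.583 points between conditions 6 and 1 did not pass (exact p = 0.0317, product 0.0952, added after seeing the data).

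**Figure D5:**
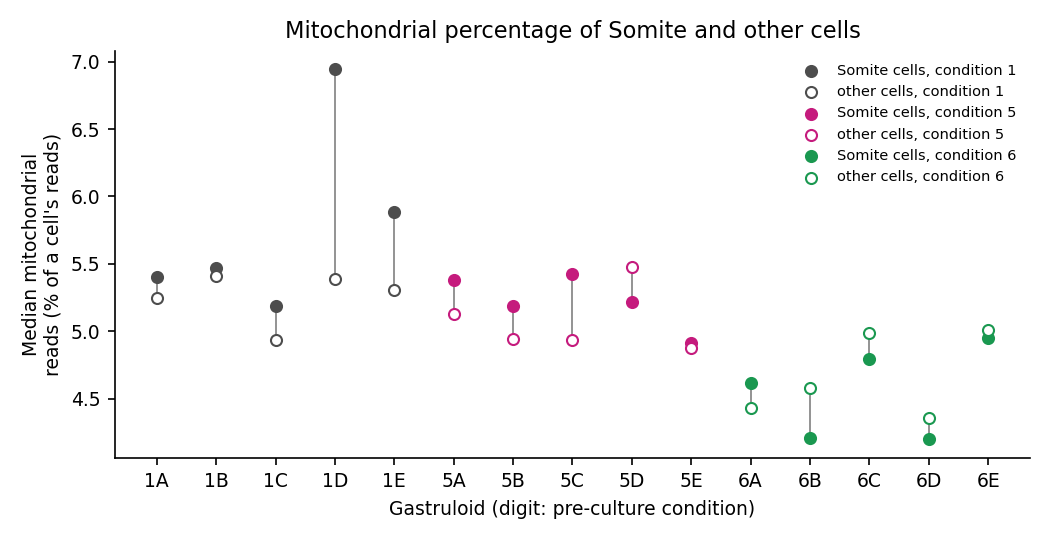
Median mitochondrial reads as percent of a cell's reads in each gastruloid, with filled points for Somite cells, open points for all other cells and a line joining both. The axis does not start at 0. Somite cells lie between 5.19% and 6.94% in condition 1 and between 4.20% and 4.95% in condition 6.

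Within a gastruloid, the median mitochondrial percentage of Somite cells was not shown to differ from that of the other cells. The difference was 0.186 ± 0.463 points (SD, n = 15, exact two-sided sign-flip test, p = 0.127), above 0 in 10 of 15 gastruloids, with the largest value of 1.56 in 1D. With means over cells in place of medians it was 0.381 points and passed (exact p = 0.000244), and against the other mesoderm cells it was -0.0296 points (exact p = 0.626). The other cells include 96 cells annotated as Allantois with a pooled median of 0.343%, far below every other type. Means are more open to such a group than medians, and the means were not tested without it. Without 1D the difference of medians was 0.0880 points (exact p = 0.253). By condition the difference was 0.522 ± 0.611, 0.155 ± 0.280 and -0.119 ± 0.205 points in conditions 1, 5 and 6 (n = 5 each), so that Somite cells were above the rest in 5 of 5 condition 1 gastruloids and in 1 of 5 condition 6 gastruloids. These means changed by over 1.5 times when single gastruloids were left out. That of condition 1 was 0.263 points without 1D. That of condition 5 was 0.0705 without 5C and 0.257 without 5D, and that of condition 6 was -0.195 without 6A and -0.0553 without 6B. The contrast of conditions 6 and 1 had an exact p of 0.0317 (product 0.0952, added after seeing the data). Cluster 5 and cluster 0 differed by 0.184 ± 1.12 points (n = 12, exact p = 0.924). That mean rests on 1D, where 7 cluster 5 cells had a median of 10.1%, and it was -0.129 points without it (exact p = 0.152).

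On the UMAP, the mean position of Somite cells also differed between conditions. The mean position of a gastruloid's Somite cells on UMAP axis 2 was 4.45 ± 0.342 for condition 1, 5.33 ± 0.820 for condition 5 and 5.76 ± 0.394 for 6 (SD, n = 5 each), and on axis 1 it was 10.4 ± 0.325, 10.3 ± 0.472 and 10.7 ± 0.843. For comparison, Somite cells had a root mean square distance of 2.14 units from their common centre. The mean is taken over both clusters, whose centres on axis 2 were 4.26 (cluster 0) and 6.91 (cluster 5). It therefore moves with the share of cluster 5 in the Somite cells, which averaged 15%, 44.1% and 37.7% in conditions 1, 5 and 6. The test over all Somite cells cannot separate that share from the position within a cluster. Over both axes the conditions passed this test (pseudo-F = 3.73, exact permutation test over 756756 assignments, p = 0.0177). The call ended without 1B (pseudo-F = 2.70, exact p = 0.0519) or without 6B (2.85, exact p = 0.0589).

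Positions within a cluster were examined after seeing the data. In cluster 0 alone the conditions differed with a pseudo-F of 8.03 (exact permutation p = 0.000539). Its mean position on axis 2 was 3.91 ± 0.325 for condition 1, 4.21 ± 0.445 for condition 5 and 5.12 ± 0.581 for 6 (SD, n = 5 each). All condition 6 values, from 4.58 to 6.12, lay above those of condition 1, from 3.61 to 4.39. In cluster 5 the difference was not detectable over the 12 gastruloids with at least 5 cells of both clusters (pseudo-F = 1.53, exact permutation p = 0.230).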

How the data were processed

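Single cells of 15 gastruloids were analysed from the per-cell table of the gastruloids. The authors demultiplexed CEL-seq2 libraries, trimmed reads with cutadapt 4.1, mapped them with STAR 2.5.3a to a strain-masked GRCm38 mouse genome, counted them with featureCounts and removed duplicates. By their description they dropped cells below 500 reads or above 20% mitochondrial reads. They removed Malat1 and the mitochondrial and ribosomal reads, normalised and log-transformed the counts, and regressed out counts, mitochondrial percentage and cell cycle phase before UMAP and Leiden clustering. The deposited counts of 5 Somite cells were nevertheless below 500, and the reason is not given in the sources used here. The count per cell deposited by the authors is a whole number of deduplicated reads. The deposited mitochondrial fraction of a cell's reads was multiplied to percent. The authors deposited an S score and a G2M score per cell, which are unitless, and the gene lists behind them are not given in the sources used here. Deposited names of 7 cell types differ from those of the study and were matched by cell number. Gene-level values were not used here, so cells were not thinned to equal depth, and doublets were not examined. Samples were grouped by their labels, and all sample names in the table had a sample. Same-numbered gastruloids did not deviate together, with correlations of their deviations from -0.505 to 0.340 and the own number giving the highest correlation in 2 of 15 pairs, so the numbers were not used as pairs.

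Each of the 3 pairs of conditions was compared on values per gastruloid by a two-sided Wilcoxon rank-sum test, enumerated exactly, and called when p times 3 was under 0.05. Benjamini-Hochberg values were taken over 21 planned tests and over 24 added ones. Differences within gastruloids were tested by exact sign flips, and positions by the pseudo-F of squared distances with all assignments enumerated. The tests were checked on simulated data. Computations used Python 3.11.15, NumPy 2.4.6, pandas 2.3.3, SciPy 1.17.1 and matplotlib 3.10.9. With 15 to 160 Somite cells per gastruloid, shares were given 95% Wilson intervals where single gastruloids mattered, and 3 cells were taken as the upper limit for a count of 0. These limits hold counting error and nothing else. Cell types were compared in the order of their cell number, with Early Somite, Presomitic Mesoderm and Differentiation Front cells compared one by one. The members, comparisons and tests were chosen with earlier results of these data known. Alternatives were a minimum of 1000 counts, a maximum of 10% mitochondrial reads, other denominators, single clusters, the middle of 3 count classes, means in place of medians and the reverse, a permutation test of means, the replicate number as a block, and the omission of single gastruloids. Added later, with the data seen, were the restriction of the share among both somitic types to G2M or S cells, the omission of 1D and 6B together, the mitochondrial difference within phase calls, and positions within single clusters.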

Additional observations from a re-analysis of the deposited data

Results flagged for a closer look

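A single value stood far from the others of its condition. In gastruloid 6B the S phase share of Somite cells was 0%, that is 0 of 15 cells, which allows a share of up to 20%. The other condition 6 gastruloids had 41.1%, 31.6%, 36.1% and 35.7% (6A, 6C, 6D and 6E), and the gap from 6B to the nearest of them was 0.769 of the whole range, above the 95% critical ratio of 0.71 for 5 values. All 15 Somite cells of 6B were called G2M, and 12 of them were in cluster 0. Their median counts of 15123 were the highest of any gastruloid, against 11990 in the other cells of 6B. In all, 24 groups of 5 gastruloids were examined, and about 1 in 20 would be found by chance.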

How the results depend on the processing

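The 24 tested results were computed again with a gastruloid left out (252 values) and under 186 other settings. Direction and side of the threshold were kept in 212 and 149 of them. The cause of a change was not tested except where fewer gastruloids raise the smallest p. Differences are in percentage points unless counts are named. For the Somite share, condition 5 minus condition 1 was no longer called without 1D and 6B (12.4), among mesoderm cells (1.58) or for cluster 0 (0.587) or cluster 5 (14.5) alone. Condition 6 minus condition 1, not called on all cells, turned to -18.1 among mesoderm cells and -4.53 for cluster 0. Somite cells among both somitic types, condition 5 minus condition 1, turned to -2.15 in G2M cells. The cluster 5 share, condition 6 minus condition 5, turned to 3.55 in the middle count class. For cluster 0 alone, the S share turned to -2.22 (condition 5 minus 1) and -9.04 (6 minus 1) and the G2M share to 1.67 and 9.04. For cluster 5 alone, 6 minus 1 turned to -6.59 for S, 1.6 for G2M and -1343 counts, and 6 minus 5 to -2112 counts. Without 1D and 6B, 6 minus 5 turned to 0.692 for S, -2.84 for G2M and -450 counts.

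The median mitochondrial percentage, condition 6 minus condition 1, missed the threshold in cluster 5 (-1.26) and with means over cells (-0.849). Without 1D and 6B it was -0.846 with an exact p of 0.0286, the smallest that 4 against 4 gastruloids can give, so no call was possible. Condition 6 minus condition 5 missed it without both gastruloids (-0.586), in cluster 0 (-0.740), in the middle count class (-1.16) and with means (-0.474). Somite minus other cells passed with means (0.381) and averaged over S and G2M calls (0.267), and turned to -0.0296 against mesoderm. The other cells behind the means include the Allantois cells, with a pooled median of 0.343%. Cluster 5 minus cluster 0 turned to -0.145 at up to 10% mitochondrial reads, -0.471 in the middle count class and -0.129 without 1D and 6B. The pseudo-F of positions missed the threshold without both gastruloids (2.98) and in cluster 5 (1.53).

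With the replicate block, which treats same-numbered gastruloids as pairs although they share only a number, the mean differences stay as they are, at 15.1 for the Somite share (5 minus 1) and -1.22 and -0.671 for the mitochondrial percentage (6 minus 1, 6 minus 5). None of the 3 can pass there, since 5 pairs give no exact p below 0.0625.

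With single gastruloids left out, the Somite share ranged from 10.6 to 17.8 (5 minus 1), from -2.36 to 3.81 (6 minus 1) and from -17.4 to -10.2 (6 minus 5). Somite cells among both types ranged from 7.41 to 15.1 (5 minus 1) and from -30.3 to -17.5 (6 minus 5). The cluster 5 share ranged from 20.8 to 38.1 (5 minus 1), from 13.7 to 27.0 (6 minus 1) and from -15.4 to 1.85 (6 minus 5), and the S share from -2.51 to 7.76 (6 minus 1) and from -10.4 to 0.692 (6 minus 5). The G2M share ranged from -15.3 to -6.57 (5 minus 1), from -13.2 to 1.10 (6 minus 1) and from -2.84 to 11.4 (6 minus 5). Median counts, 6 minus 5, ranged from -450 to 1440. The mitochondrial percentage, 6 minus 5, ranged from -0.770 to -0.582, cluster 5 minus cluster 0 from -0.129 to 0.246, and the pseudo-F from 2.70 to 6.02. With 15 Somite cells in 6B and 24 in 1D, shares in these gastruloids are the least precise.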

Other observations

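Neighbours on the UMAP came from a Somite cell's own gastruloid more often than a random mixture of Somite cells would give, 16.9% against 7.97%. This was mostly a feature of cluster 5. Counting only neighbours of the same cluster, 29.8% came from the own gastruloid in cluster 5, where mixing within the cluster would give 14.6%, and 10.7% against 7.44% in cluster 0. Neighbours of cluster 5 cells among all Somite cells came from the own condition in 61.1%, against 39.6% in a random mixture of all Somite cells. Cluster 5 itself consisted of 8.98% condition 1, 63.4% condition 5 and 27.7% condition 6 cells. A mixture within the cluster was not computed for conditions, so the excess includes this composition. A gastruloid and its plate cannot be told apart here.

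The deposited table holds another numbered grouping of the cells, the origin of which is not given in the sources used here. It divides the Somite cells along nearly the same line as clusters 0 and 5. Group 2 held 74.6% of cluster 0 and group 11 held 12.2%, whereas group 6 held 85.3% of cluster 5. Group 11 was mixed, with 88 Somite cells of which 78.4% were called G2M and 55 Early Somite cells of which 92.7% were called S. In group 8 the 25 Somite cells were 92.0% G2M and the 221 Early Somite cells 68.8% S. Both are descriptions without a test, since this grouping may rest on the same genes.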
